A study of Mus musculus with 25 samples.

Results

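Cholesterol synthesis genes and targets of the transcription factor SREBP2 were examined in mouse liver as a list of 27 named genes given by symbol for their known roles, in a list drawn up with earlier results of these data known. All 27 symbols matched 1 gene identifier each among the 41388 identifiers counted in every library, and all 27 passed the filter on low counts that left 14065 genes for testing. The libraries are poly-A selected RNA sequencing libraries of whole liver from C57B/6J mice of 20 weeks of age, male per the study's methods. Chow-fed wild-type mice given the empty AAV8 vector (chow WT EV) gave 3 libraries, and Western diet-fed (WD) wild-type mice gave 6 libraries with the empty vector (WD WT EV) and 6 with AAV8-NAMPT (WD WT NAMPT). Western diet-fed SIRT1 liver-specific knockout mice (SIRT1 LKO) gave 5 libraries with the empty vector (WD LKO EV) and 5 with AAV8-NAMPT (WD LKO NAMPT). The vector was expressed for 12 weeks per the series design. The paper's methods instead name a time of days between AAV8 treatment and assay, and its results give 12 weeks for the diet. NAMPT, the rate-limiting enzyme of NAD salvage, was driven by the thyroxine-binding globulin promoter, which acts in hepatocytes. SIRT1 is a deacetylase that uses NAD, and its floxed gene was removed by Cre under the albumin promoter. The WT mice were littermates with the floxed Sirt1 gene, and every mouse received AAV8, so no group is free of vector. One label describes the vector as carrying SIRT1, but the sample titles and the series design name NAMPT, and groups follow the titles.

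Cholesterol is built from acetyl-CoA through mevalonate, the isoprenoid diphosphates, squalene and lanosterol, and the liver is a main site of this synthesis. SREBP2 raises transcription of nearly every enzyme of the pathway. When sterol in the endoplasmic reticulum is high, the INSIG proteins hold SREBP2 and its escort SCAP there, so that SREBP2 is not cut to its active form and its targets are transcribed less. Insig1 and Srebf2, which encodes SREBP2, are themselves SREBP2 targets, whereas the liver transcript of Insig2 is known as one that insulin lowers.

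The promoters of 4 of the genes are shown because they span the range of responses described here. Hmgcs1 (ENSMUSG00000093930) was lower in both the diet and the NAMPT comparison, Idi1 (ENSMUSG00000058258) and Mvk (ENSMUSG00000041939) had the smallest adjusted p-values with diet, and Insig2 (ENSMUSG00000003721) was the 1 gene that rose with diet. The sequences are the 250 bases before a RefSeq transcript start on the GRCm38.p6 assembly, read 5′ to 3′ on the gene's strand. Capitals mark matches on either strand to CCAAT, the box bound by NF-Y (ATTGG on the reverse strand), and to TCACNCCAC, a sterol regulatory element-like motif in which N is any base. The windows are chr13:119690101-119690350 on the plus strand for Hmgcs1, chr13:8885356-8885605 on the plus strand for Idi1, chr5:114444019-114444268 on the plus strand for Mvk and chr1:121332590-121332839 on the minus strand for Insig2. The Hmgcs1 window ends before the first base of the gene in the annotation used to match the files, at 119690462, the windows of Mvk and Insig2 end directly before an annotated start, and that of Idi1 ends inside an annotated transcript.
Hmgcs1: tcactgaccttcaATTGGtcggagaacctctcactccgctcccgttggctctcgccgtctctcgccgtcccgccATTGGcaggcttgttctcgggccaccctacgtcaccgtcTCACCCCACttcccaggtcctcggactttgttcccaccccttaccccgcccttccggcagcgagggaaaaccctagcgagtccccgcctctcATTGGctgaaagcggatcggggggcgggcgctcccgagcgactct
Idi1: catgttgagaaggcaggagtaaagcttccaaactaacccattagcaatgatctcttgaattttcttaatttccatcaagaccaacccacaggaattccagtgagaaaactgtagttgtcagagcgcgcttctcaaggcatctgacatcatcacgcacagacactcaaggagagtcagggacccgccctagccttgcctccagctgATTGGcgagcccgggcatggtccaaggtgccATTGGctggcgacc
Mvk: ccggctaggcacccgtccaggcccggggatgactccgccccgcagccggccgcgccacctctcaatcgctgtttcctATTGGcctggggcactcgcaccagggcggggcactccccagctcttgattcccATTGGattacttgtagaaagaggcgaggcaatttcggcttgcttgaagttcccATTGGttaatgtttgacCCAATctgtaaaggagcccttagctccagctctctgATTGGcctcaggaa
Insig2: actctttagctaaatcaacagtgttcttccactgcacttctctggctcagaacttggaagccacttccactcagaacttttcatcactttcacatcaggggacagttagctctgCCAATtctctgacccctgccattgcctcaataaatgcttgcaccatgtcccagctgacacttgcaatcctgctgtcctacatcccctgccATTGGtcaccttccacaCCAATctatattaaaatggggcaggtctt
CCAAT stood 3 times in the Hmgcs1 window, 2 times in Idi1, 5 times in Mvk and 3 times in Insig2, and the TCACNCCAC match of Hmgcs1 began 137 bases before the transcript start. RefSeq windows were at hand for 23 of the 27 genes (not for Sqle, Stard4, Fdps and Fdft1). CCAAT was found in 21 of these 23 genes (91.3%), against 40.5% of the 10361 tested genes with a window. TCACNCCAC was found in 1 of the 23 (4.35%, Hmgcs1) against 1.29% of tested genes, and CACGTG, the E-box, in 6 (26.1%) against 9.78%. These matches describe the letters in the windows and are not evidence of binding.

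Total counts ran from 20166175 to 32937326 per library, and levels are given as CPM, the count relative to the library's total after TMM scaling for library composition. Sirt1 RNA did not set the libraries labelled SIRT1 LKO apart from WT. The mean Sirt1 level was 8.57 ± 1.34 CPM (SD, n = 5) in WD LKO EV and 9.82 ± 1.36 (n = 5) in WD LKO NAMPT, beside 8.86 ± 0.573 (n = 6) in WD WT EV and 8.58 ± 0.617 (n = 6) in WD WT NAMPT. The log2 fold change of LKO against WT was -0.07 ± 0.10 with the empty vector (adjusted p = 0.99) and 0.19 ± 0.11 with NAMPT (adjusted p = 0.237), neither called. A count over the whole gene does not resolve the exon between the loxP sites, so these values neither show nor exclude the deletion, and the genotype is used below as labelled. Nampt averaged 59.5 ± 10.6 CPM (n = 6) in WD WT NAMPT and 47.4 ± 6.46 (n = 6) in WD WT EV, a log2 fold change of 0.34 ± 0.16 (SE) that was not called (adjusted p = 0.144). It averaged 79.9 ± 28.4 CPM (n = 5) in WD LKO NAMPT and 56.1 ± 12.0 (n = 5) in WD LKO EV, a log2 fold change of 0.41 ± 0.16 (adjusted p = 0.403), also not called. The hepatocyte markers Alb, Apoa1, Ttr, Cps1, Cyp2e1 and Tat summed to between 45120 and 76845 CPM in every library. A gene was called where limma-voom with sample quality weights, fitted over all 25 libraries and adjusted over all 14065 genes, gave an adjusted p at or under 0.05. Fold changes are log2 with their SE.

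Before any comparison, the genes differed widely in level. Per kilobase of exon, the mean chow level was highest for Sc5d (368 CPM per kb), followed by Fdps (242), Hmgcs1 (238) and Insig1 (199), and lowest for Ggps1 (2.05), Lbr (4.41) and Lss (7.54). On Western diet with the empty vector, Sc5d (197 CPM per kb), Insig2 (134) and Insig1 (123) led, and Sqle was lowest at 0.933. On chow, Insig2 had stood at 64.0 CPM per kb and Sqle at 20.1. The lowest raw counts of any gene of the list in a library were 40 for Sqle, 41 for Mvd and 59 for Ggps1, so that counting error was widest for these 3 genes.

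The first comparison asked how Western diet altered the pathway in WT liver with the empty vector. Of the 27 genes, 25 fell and 1 rose, where 12.0% of all genes tested were called lower and 10.1% higher. The single gene that was not called was Tmem97, at -0.31 ± 0.12 (adjusted p = 0.0688). The median log2 fold change of the 27 genes was -1.49, beside a median of 0.0 over all genes, and 26 values were below 0, as were 50.5% of all genes. In 22 of the 27 genes every WD library lay below every chow library, as it did in 8.45% of all genes, and in 1 gene, Insig2, every WD library lay above, as in 7.66%. Summed over the 27 genes, the level was 6025, 5741 and 4071 CPM in the 3 chow libraries and 1585 to 2831 CPM (median 2627) in the 6 WD WT EV libraries. The 2 sets of libraries did not overlap in this sum.

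**Figure D1:**
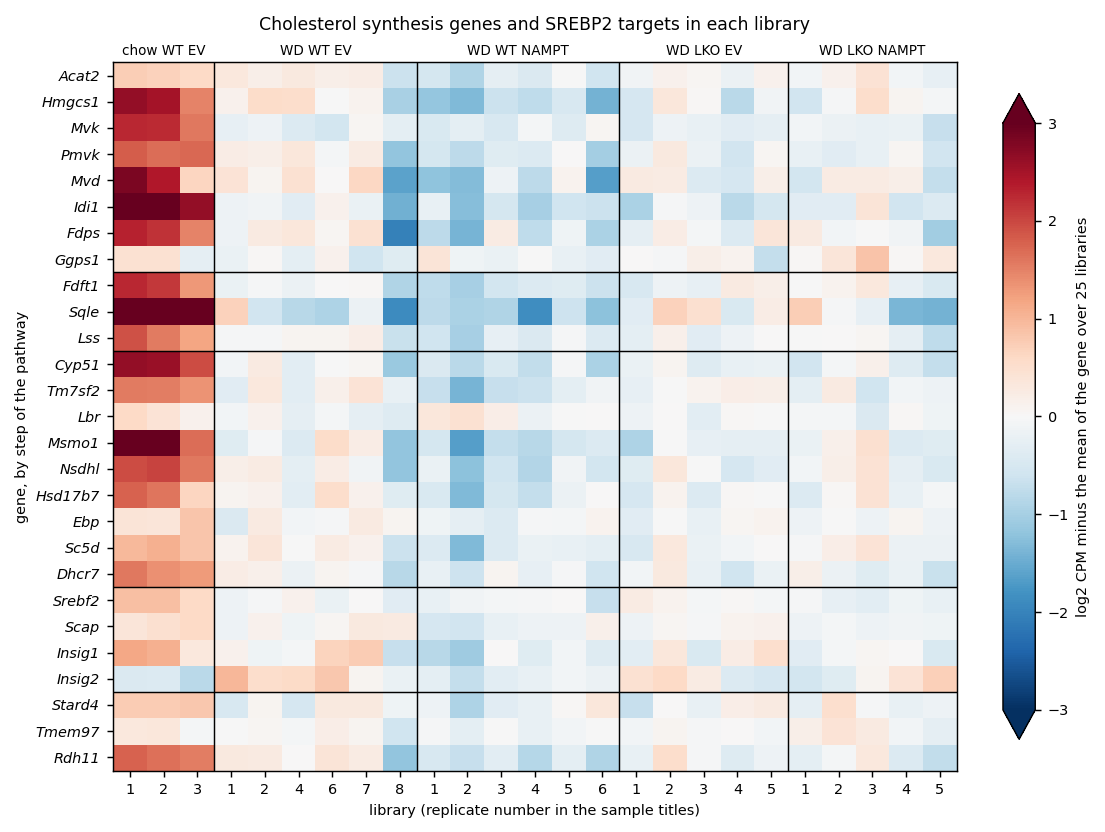
Heat map of the 27 genes (rows, by step of the pathway) in the 25 libraries (columns, by group), as log2 CPM minus the mean of each gene over the 25 libraries; colours are capped at 3 in either direction. The 3 chow libraries are highest for nearly all rows except Insig2, WD WT EV replicate 8 is the lowest library of its group in 21 rows and WD WT NAMPT replicate 2 in 16.

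All 8 genes of the mevalonate and isoprenoid steps fell with diet, 7 of them without overlap between libraries. Idi1, the isomerase that makes dimethylallyl diphosphate, had 118, 109 and 52.9 CPM in the chow libraries and 3.14 to 9.26 CPM (median 7.56) in WD WT EV. Every WD library was far below the lowest chow library, and the log2 fold change was -3.87 ± 0.21 (adjusted p = 3.51e-12). Mvk, mevalonate kinase, had 41.5, 40.7 and 25.8 CPM on chow and 5.86 to 9.01 CPM (median 7.16) on Western diet, a log2 fold change of -2.41 ± 0.13 (adjusted p = 2.97e-12). The WD libraries were close together and all under the chow values. Hmgcs1, the HMG-CoA synthase that feeds the pathway, had 981, 886 and 445 CPM on chow and 80.5 to 233 CPM (median 173) on Western diet, with a log2 fold change of -2.27 ± 0.26 (adjusted p = 1.79e-06). Pmvk, phosphomevalonate kinase, had 79.3, 71.9 and 75.3 CPM on chow and 9.98 to 28.6 CPM (median 26) on Western diet, with a log2 fold change of -1.72 ± 0.18 (adjusted p = 5.63e-07). Chow replicate 3 was the low chow library for Idi1, Mvk and Hmgcs1 but not for Pmvk.

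The other 4 genes of these steps differed in size of response. Mvd, the mevalonate diphosphate decarboxylase, fell from 11 to 49.9 CPM on chow to 2.31 to 10.7 CPM, a log2 fold change of -2.30 ± 0.33. With 1 library left out at a time, the Mvd value ran from -2.59 to -1.45 and was called in every fit. Fdps, farnesyl diphosphate synthase, fell from 206 to 364 CPM to 18.2 to 101 CPM (-2.22 ± 0.34). Acat2, the cytosolic acetoacetyl-CoA thiolase at the pathway's entry, fell less, from 67.9 to 75.4 CPM to 28.7 to 56.3 CPM (-0.58 ± 0.14, adjusted p = 0.00359). Reads that match Acat2 and its near-identical copy Acat3 equally would be left out of both counts, and Acat3 also had a fitted value of -0.58. Ggps1, which makes geranylgeranyl diphosphate for protein prenylation and leads away from sterols, was lower by the smallest amount of the 8 genes (-0.53 ± 0.17, adjusted p = 0.0304), and its libraries overlapped (3.39 to 5.61 CPM on chow, 2.69 to 4.4 CPM on Western diet). Its call was lost in 8 of 12 other settings of the analysis and in 5 of 9 fits with 1 library left out.

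The 3 enzymes that carry farnesyl diphosphate to lanosterol all fell without overlap. Sqle, squalene epoxidase, a rate-controlling step of sterol synthesis, showed the largest change of the 27 genes. It had 140, 136 and 59.0 CPM on chow and 1.85 to 11.1 CPM (median 4.21) on Western diet, a 26.8-fold difference (log2 fold change -4.74 ± 0.33, adjusted p = 4.94e-10). Fdft1, squalene synthase, had 231, 209 and 118 CPM on chow and 25.7 to 49.5 CPM (median 45.1) on Western diet, with a log2 fold change of -2.24 ± 0.17 (adjusted p = 3.16e-09). Lss, lanosterol synthase, had 102, 80.2 and 61.3 CPM on chow and 17 to 31.2 CPM (median 27.5) on Western diet, with a log2 fold change of -1.70 ± 0.16 (adjusted p = 1.04e-07). Chow replicate 3 was the lowest chow library for all 3 enzymes, yet stood above every WD library. Fdft1 shares 767 exonic bases with Ctsb on the opposite strand and Lss 381 with 4930483K19Rik, and the strand setting of the counting was not stated. Only uniquely aligned and unambiguous reads were counted, so without strand, reads in these shared bases would be left out.

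All 9 genes from lanosterol to cholesterol fell, 8 without overlap. Msmo1, the methylsterol monooxygenase, had 386, 344 and 135 CPM on chow and 18.6 to 61.4 CPM (median 36.8) on Western diet, with a log2 fold change of -3.09 ± 0.26 (adjusted p = 8.5e-09). Cyp51, lanosterol demethylase, had 277, 268 and 172 CPM on chow and 20.4 to 53.2 CPM (median 42.9) on Western diet, with a log2 fold change of -2.65 ± 0.20 (adjusted p = 1.77e-09). In both genes every WD library lay below the lowest chow library, chow replicate 3. Nsdhl, the decarboxylating sterol dehydrogenase, had 112, 118 and 86.4 CPM on chow and 12.7 to 34.1 CPM (median 29.8) on Western diet (-2.02 ± 0.21, adjusted p = 4.62e-07). Tm7sf2, a sterol reductase, had 194, 191 and 167 CPM on chow and 52.4 to 88 CPM (median 65.1) on Western diet (-1.47 ± 0.16, adjusted p = 7.4e-07). Tm7sf2 shares 532 exonic bases with Vps51 on the same strand, where ambiguous reads would be left out.

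The remaining 5 of these 9 genes fell as follows. Hsd17b7, the ketoreductase that works beside Nsdhl, and Dhcr7, the reductase of the last step, each had a log2 fold change of -1.49 ± 0.18. Sc5d, the lathosterol desaturase and the most abundant enzyme of the list per kilobase, fell from 784 to 921 CPM on chow to 279 to 566 CPM (-0.92 ± 0.17, adjusted p = 0.000571). Lbr, which shares the sterol reductase activity of Tm7sf2 but is mainly known as a nuclear envelope protein, fell by 0.53 on the log2 scale with overlapping libraries (13.1 to 18 CPM against 9.10 to 13.1 CPM). Ebp, the sterol isomerase, changed least of the 9 (-0.39 ± 0.12, adjusted p = 0.0216), and here chow replicate 3 was the highest of the chow libraries, at 307 CPM beside 227 and 223.

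The 4 genes of the SREBP2 machinery divided in direction. Srebf2 had 96.1, 96.9 and 78.9 CPM on chow and 40.6 to 57.0 CPM (median 48.7) on Western diet, with a log2 fold change of -0.95 ± 0.09 (adjusted p = 9.26e-08) and no overlap. Scap fell by 0.37 on the log2 scale (SE 0.09, adjusted p = 0.00358), from 114 to 133 CPM to 79.8 to 108 CPM, and shares 985 exonic bases with 5830462I19Rik on the opposite strand. Insig1 fell by 0.92 (SE 0.23, adjusted p = 0.00682) with overlapping libraries, from 361 to 644 CPM on chow to 179 to 496 CPM. Insig2 rose by 0.96 ± 0.23 (adjusted p = 0.00367), from 184 to 244 CPM on chow to 284 to 645 CPM on Western diet. The 2 INSIG genes thus moved in opposite directions under the same diet. The Insig1 call was lost in 4 of 12 other settings of the analysis and in 2 of 9 fits with 1 library left out, without a change of direction. Among the other SREBP2 targets, Rdh11, a retinal reductase, fell by 1.60 (SE 0.21) from 76.6 to 90.5 CPM to 11.8 to 34.9 CPM, and Stard4, a sterol carrier of the cytosol, fell by 0.83 (SE 0.19) from 137 to 142 CPM to 56.8 to 98.7 CPM. Tmem97, a sterol-regulated membrane protein, had 55.0 to 71.5 CPM on chow and 37.6 to 65.5 CPM on Western diet.

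**Figure D2:**
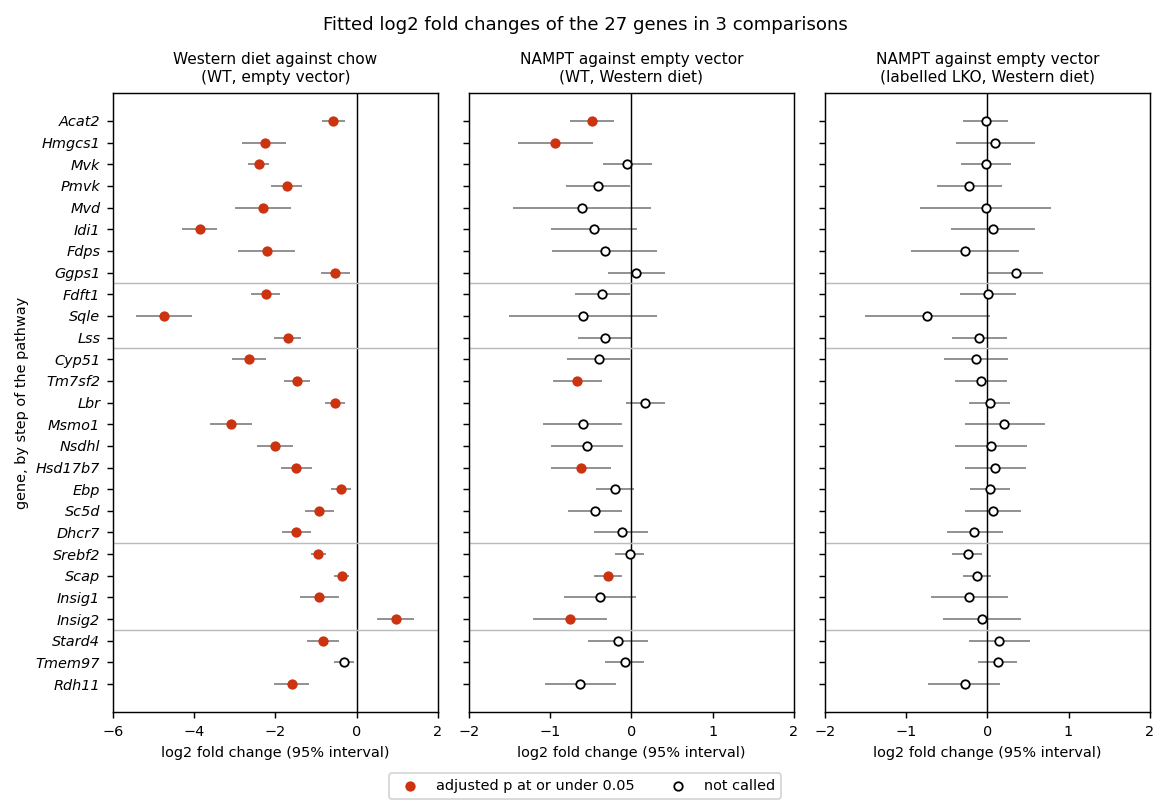
Fitted log2 fold changes (points) with 95% intervals (lines) of the 27 genes for diet in WT liver, NAMPT in WT liver and NAMPT in liver labelled LKO; filled points have an adjusted p at or under 0.05, and the first panel has a wider axis. Filled points number 26 for diet, 6 for NAMPT in WT liver and 0 for NAMPT in liver labelled LKO.

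Clock genes also differed between the chow and WD livers. Of 14 clock genes, 6 rose and 4 fell with diet. Dbp, a clock output factor, had 0.620 to 5.13 CPM on chow and 8.79 to 51.3 CPM on Western diet, and Arntl, a core clock activator, had 27.6 to 37.4 CPM on chow and 4.88 to 18.1 CPM on Western diet. Neither gene overlapped between the groups. A score of 6 clock genes (Dbp, Tef and Per3 minus Arntl, Npas2 and Clock, as mean z scores) ran from -2.07 to -1.32 on chow and from -0.81 to 0.84 in WD WT EV, so the clock score and diet cannot be told apart in these groups. With the score as a covariate, 23 of the 27 genes were called lower and Insig2 higher, with a median log2 fold change of -1.56, and Ggps1, Lbr and Tmem97 were not called. That fit called 2286 of all genes tested in either direction, beside 3101 without the score. In it Insig2 stood at 1.84, Stard4 at -1.47 and Ebp at -0.64. Among cell type markers, Cd68 and Cd5l of macrophages, Lrat and Col3a1 of stellate cells and fibroblasts and Lyve1 of endothelium rose with diet, and Cps1 and Tat of hepatocytes and Kdr of endothelium fell. The part of clock phase and of cell types in the diet response was not tested further. The fit gave chow replicate 3 a quality weight of 0.608, beside 1.8 and 2.5 for chow replicates 1 and 2, so the fitted diet values lean on those 2. Chow replicate 3 was the lowest chow library for 23 of the 27 genes, and replicate 8 was the lowest WD WT EV library for 21. Leaving out both libraries called 25 genes lower and 1 higher (3165 of all genes in either direction), and leaving out any single library called between 18 (without chow replicate 2, where 834 of all genes were called) and 27 genes.

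The second comparison asked what AAV8-NAMPT did to the pathway in WT liver on Western diet. Of the 27 genes, 6 fell and 0 rose, where 5.77% of all genes tested were called lower and 7.67% higher. The genes called lower were Hmgcs1, Tm7sf2, Hsd17b7, Acat2, Insig2 and Scap. The fitted value was negative in 25 of 27 genes, as in 49.3% of all genes, and the median was -0.40 beside 0.0 over all genes. An unadjusted p under 0.05 was reached by 13 of the 27 genes and by 30.3% of all genes. In none of the 27 genes did the 6 NAMPT libraries lie wholly above or below the 6 empty vector libraries, which occurred in 0.37% and 0.59% of all genes. The summed level of the 27 genes was 1212 to 2024 CPM (median 1798) in WD WT NAMPT and 1585 to 2831 CPM (median 2627) in WD WT EV, with overlap through WD WT EV replicate 8 alone, at 1585 CPM. The other 5 WD WT EV libraries started at 2393 CPM.

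Hmgcs1 had the largest value of the 6 genes. It had 58.8 to 114 CPM (median 82.2) in WD WT NAMPT and 80.5 to 233 CPM (median 173) in WD WT EV, with a log2 fold change of -0.94 ± 0.23 (adjusted p = 0.0137). Only WD WT EV replicate 8 stood within the NAMPT range. Insig2, which diet had raised, had 196 to 306 CPM (median 271) with NAMPT and 284 to 645 CPM (median 472) with the empty vector, a log2 fold change of -0.76 ± 0.22 (adjusted p = 0.0265). Again WD WT EV replicate 8, at 284 CPM, was the single empty vector library within the NAMPT range. With the clock score as a covariate, the Insig2 value was -0.26 and not called. Tm7sf2 had 25.2 to 61.9 CPM (median 41.8) with NAMPT and 52.4 to 88 CPM (median 65.1) with the empty vector, a log2 fold change of -0.67 ± 0.15 (adjusted p = 0.0121). Hsd17b7 had 14.5 to 36.6 CPM (median 25.8) against 28.3 to 52.1 CPM (median 39.2), a log2 fold change of -0.62 ± 0.18 (adjusted p = 0.0262). Acat2 had 24.2 to 44.4 CPM (median 32.3) against 28.7 to 56.3 CPM (median 52), a log2 fold change of -0.48 ± 0.13 (adjusted p = 0.0201), and Scap had 59.4 to 98.6 CPM (median 77.1) against 79.8 to 108 CPM (median 94.1), a log2 fold change of -0.29 ± 0.08 (adjusted p = 0.0254). In all 6 genes the groups overlapped, by few libraries in Hmgcs1 and Insig2 and by more in Scap.

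**Figure D3:**
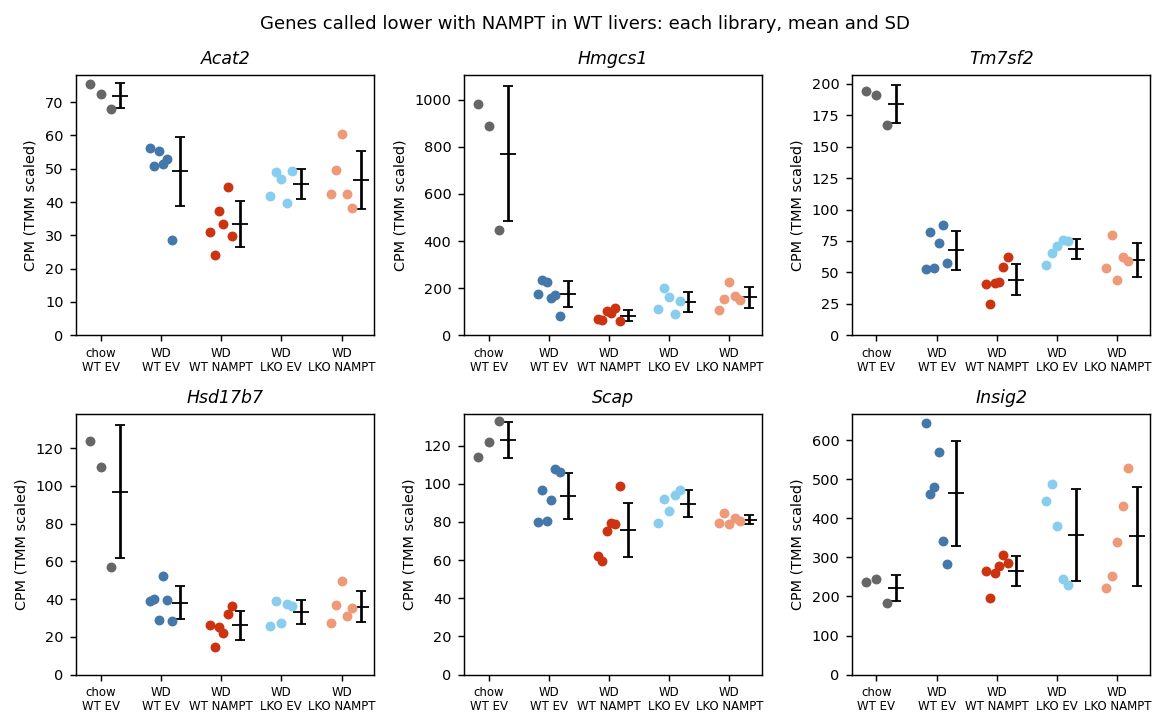
Level in CPM of the 6 genes called lower with NAMPT in WT liver, one point per library in the 5 groups, with the mean and SD drawn beside the points; each vertical axis starts at 0. Chow is highest for each gene except Insig2, and the WD WT NAMPT mean is the lowest of the 5 groups for each gene except Insig2, whose chow mean is lowest.

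The other genes with values per library were not called with NAMPT. Sqle had 1.87 to 4.44 CPM (median 3.58) in WD WT NAMPT and 1.85 to 11.1 CPM (median 4.21) in WD WT EV, with a log2 fold change of -0.60 and a 95% interval from -1.50 to 0.31. Idi1 had 3.49 to 7.26 CPM (median 5.54) with NAMPT (-0.46, interval -0.99 to 0.07), and Msmo1 had 13.4 to 31.8 CPM (median 27.3) with NAMPT (-0.60, interval -1.09 to -0.11, adjusted p = 0.0889). Mvk, at 6.15 to 8.94 CPM (median 6.84), and Srebf2, at 31.9 to 51.9 CPM (median 48.6), had values near 0, of -0.05 (interval -0.35 to 0.26) and -0.02 (interval -0.20 to 0.16). For Cyp51, Fdft1, Lss, Nsdhl and Pmvk, the medians with NAMPT were 29.7, 31.7, 20.3, 19.5 and 16.4 CPM and the fitted values lay between -0.54 and -0.32, none of them called. Lbr (0.17) and Ggps1 (0.06) were the 2 genes with a positive value. By step, the genes called lower were 2 of 8 in the mevalonate and isoprenoid steps, 0 of 3 from squalene to lanosterol, 2 of 9 from lanosterol to cholesterol, 2 of 4 in the SREBP2 machinery and 0 of 3 among the other targets.

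Which genes were called with NAMPT in WT liver rested on single libraries and on the test. All libraries together called 1890 of all genes in either direction. No gene of the list was called without WD WT EV replicate 2 (291 of all genes called) or without WD WT NAMPT replicate 3 (132 of all genes). The calls were 2 without WD WT EV replicate 6 (628 of all genes) or WD WT NAMPT replicate 2 (741 of all genes), and 12 without WD WT EV replicate 8 (1645 of all genes). edgeR's quasi-likelihood test called 3 genes of the list (Acat2, Hmgcs1 and Insig2) and 428 of all genes, DESeq2 called 7 and 1194, and limma-voom without sample quality weights called 1 (Hmgcs1) and 192. Over 12 other settings, the call was lost in 8 for Scap, 7 for Hsd17b7, 4 each for Acat2 and Insig2, 3 for Tm7sf2 and 1 for Hmgcs1. In 12 fits with 1 library left out, it was lost in 7 for Scap, 5 for Hsd17b7, 4 each for Acat2 and Insig2, and 2 each for Tm7sf2 and Hmgcs1. The quality weights were 0.336 for WD WT NAMPT replicate 6 and 0.401 for replicate 2, the lowest of their group.

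Markers of other liver cells moved in the same comparison. Of 8 Kupffer cell and macrophage markers, 5 rose with NAMPT in WT liver (Csf1r by 0.64, Cd68 by 1.0, Adgre1 by 0.91, Cd5l by 0.91 and Marco by 2.79 on the log2 scale), and their summed level was 289 to 812 CPM in WD WT NAMPT and 307 to 444 CPM in WD WT EV. Of 7 stellate cell and fibroblast markers, 4 rose (Pdgfrb, Des, Col1a1 and Col3a1), with sums of 295 to 726 CPM and 290 to 481 CPM. Of 6 hepatocyte markers 1 fell (Cyp2e1), and their sums were 45120 to 64787 CPM and 54621 to 71334 CPM. Of 3 neutrophil markers tested, S100a9 rose. Of 5 endothelial markers Pecam1 rose by 0.36 and Clec4g fell by 0.40, and no cholangiocyte or lymphocyte marker was called. Ly6g, a defining neutrophil marker, was at 0 in every WD WT EV library and at most 0.039 CPM in WD WT NAMPT. Their part in the lower cholesterol synthesis genes was not tested. In whole liver, fewer cells of a type and less RNA per cell cannot be told apart.

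The third comparison set NAMPT against the empty vector in mice labelled SIRT1 LKO. With limma-voom, 0 of 27 genes were called, where 0.00711% of all genes tested were called, and edgeR's quasi-likelihood and exact tests and DESeq2 also called 0. An unadjusted p under 0.05 was reached by 2 genes, Srebf2 and Ggps1, beside 9.63% of all genes. The median was -0.02, and 15 values were negative, beside 46.3% of all genes. The libraries of the 2 groups overlapped in all 27 genes, whereas 0.505% of all genes were higher and 0.647% lower without overlap. No gene of the marker, clock or neighbouring lists was called. The largest values were those of Sqle, Ggps1 and Rdh11. Sqle had 5.39, 11.1, 9.46, 4.99 and 7.94 CPM in WD LKO EV and 11.4, 6.67, 5.76, 2.62 and 2.54 CPM in WD LKO NAMPT, a log2 fold change of -0.74 with an interval from -1.51 to 0.03. The groups overlapped over most of their range. Ggps1 had 0.35 (interval 0.01 to 0.69, adjusted p = 0.507) and Rdh11 -0.28 (interval -0.73 to 0.16). Hmgcs1 had 111, 200, 161, 89.7 and 147 CPM with the empty vector and 106, 154, 227, 167 and 151 CPM with NAMPT, a log2 fold change of 0.10 (interval -0.39 to 0.59). Insig2 ranged from 229 to 489 CPM with the empty vector and from 222 to 528 CPM with NAMPT, nearly the same span.

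The difference between genotypes in the NAMPT effect was tested directly as an interaction, in which a positive value means a less negative NAMPT effect in mice labelled LKO. With limma-voom, 0 of 27 genes were called (0.00711% of all genes), 7 had an unadjusted p under 0.05 (21.2% of all genes), and 23 values were positive with a median of 0.29, where 51.3% of all genes were below 0 with a median of -0.01. edgeR's quasi-likelihood test called 0 genes of the list and 0 of all genes, and DESeq2 called 1, Hmgcs1, and 19 of all genes. The largest values were 1.04 for Hmgcs1 (interval 0.36 to 1.72, adjusted p = 0.0961), 0.82 for Msmo1 (interval 0.12 to 1.51, adjusted p = 0.172) and 0.72 for Hsd17b7 (interval 0.19 to 1.25, adjusted p = 0.126). Msmo1 had 22, 41.9, 35.2, 34.9 and 35.1 CPM in WD LKO EV and 36.8, 46.6, 58.2, 31.7 and 32.8 CPM in WD LKO NAMPT, while its WT medians were 27.3 CPM with NAMPT and 36.8 CPM with the empty vector. A difference between genotypes in the NAMPT effect on these genes was therefore not called by limma-voom. The 95% intervals that did not include 0 were those of the 7 genes with an unadjusted p under 0.05 (Hmgcs1, Msmo1, Hsd17b7, Insig2, Tm7sf2, Sc5d and Acat2), a share near that of all genes.

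Within NAMPT-treated mice, those labelled LKO had a positive fitted value against WT in 23 of 27 genes (median 0.29), where 50.8% of all genes were below 0, and 9 genes had an unadjusted p under 0.05 beside 28.6% of all genes. Of the 27, 1 gene, Tm7sf2, was called higher and 0 lower, where 4.18% of all genes were called higher, 3.78% lower and 7.96% in either direction. Tm7sf2 had 53.7, 79.9, 43.7, 62.5 and 59.1 CPM in WD LKO NAMPT and 25.2 to 61.9 CPM (median 41.8) in WD WT NAMPT, with a log2 fold change of 0.59 ± 0.16 (adjusted p = 0.0304), and the groups overlapped. The call was not kept with edgeR's quasi-likelihood test (adjusted p = 0.205), its exact test (0.191) or DESeq2 (0.176). Hmgcs1 had the largest value, 0.76 ± 0.24 (adjusted p = 0.0519), and was the 1 gene called by the exact test and by DESeq2. Sc5d was the single gene without overlap (0.789% of all genes were higher in this way and 0.604% lower), at 388 to 585 CPM against 176 to 381 CPM, with an adjusted p of 0.132. No gene of the list was called without any one of WD WT NAMPT replicates 1, 2, 3 and 4 or WD LKO NAMPT replicates 2, 3 and 5, fits that called 0 to 655 of all genes. The calls were 2 without WD WT NAMPT replicate 6 (2290 of all genes) or WD LKO NAMPT replicate 1 (2266 of all genes) and 3 without WD WT NAMPT replicate 5 (1954 of all genes), beside 1120 of all genes with every library. The macrophage markers Csf1r and Marco, Pdgfrb of stellate cells, Sox9 of cholangiocytes and Tat of hepatocytes were also lower in mice labelled LKO and Cyp2e1 of hepatocytes higher, and their part was not tested. This comparison shares the WD WT NAMPT libraries with the NAMPT comparison in WT liver, so the low values of that group enter both.

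With the empty vector, mice labelled LKO and WT mice on Western diet are compared last. With limma-voom, 0 of 27 genes were called (0.00711% of all genes), as with edgeR's quasi-likelihood and exact tests and DESeq2, and 1 gene, Sqle, had an unadjusted p under 0.05, beside 6.33% of all genes. The median was -0.07, and 20 values were negative, beside 49.5% of all genes. Without chow WT EV replicate 3 and WD WT EV replicate 8, the median was -0.19 and 24 values were negative. Sqle was 0.77 (interval 0.02 to 1.52, adjusted p = 0.774), Insig2 -0.36 (interval -0.81 to 0.09) and Hmgcs1 -0.28 (interval -0.74 to 0.18). Some of the 12 genes with values per library had WD LKO EV libraries above the WD WT EV range. Srebf2 had 61.3, 55.3, 49.3, 53.1 and 49.3 CPM in WD LKO EV, with replicate 1 above the WT range. Fdft1 had 34.6, 43.6, 40.5, 58.5 and 54.3 CPM, with replicates 4 and 5 above it. Nsdhl had 22.6, 36.9, 28.9, 20.4 and 22.9 CPM, with replicate 2 above it. The highest Sqle libraries of the 2 groups, WD LKO EV replicate 2 and WD WT EV replicate 1, were both at 11.1 CPM. All WD LKO EV libraries of the other 8 genes lay inside the WD WT EV range, for example Mvk at 6.04, 7.77, 7.41, 6.80 and 7.13 CPM and Idi1 at 4.43, 8.32, 7.68, 4.83 and 5.90 CPM.

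Across the 22 WD libraries, after subtraction of each group's mean, most of the genes varied together from library to library. The correlation of a gene's log2 CPM with the mean of the other 26 genes had a median of 0.74, and 16 genes exceeded 0.7, led by Acat2 (0.91), Nsdhl (0.89) and Cyp51 (0.88). Under 0.3 were Insig2 (0.23), Srebf2 (0.20), Mvk (0.17), Ggps1 (0.11), Ebp (0.07), Scap (0.07) and Lbr (0.02). The 7 genes with low values included 3 of the 4 genes of the SREBP2 machinery, and Mvk stood apart from the other early enzymes although its diet response had the smallest adjusted p. These values are descriptive, since the points share library depth and RNA composition, and WD WT EV replicate 8, the lowest of its group for 21 genes, and WD WT NAMPT replicate 2, the lowest for 16, weigh on them.

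Neighbouring gene lists gave the setting of the diet response. Of 13 lipogenic genes, most of them known as SREBP1 targets, 9 rose and 1 fell with diet (median 1.35), with Scd1, the stearoyl-CoA desaturase, at 2.95 ± 0.21, Srebf1 at 1.63 ± 0.19 and Pklr, liver pyruvate kinase, known as a target of the glucose-responsive factor ChREBP, at 1.81 ± 0.23. The 1 gene that fell was Acss2, an acetyl-CoA synthetase, at -1.19 ± 0.27. Of 11 genes of sterol esterification and LXR-driven efflux, 7 rose and 0 fell (median 0.42), with the canalicular sterol transporters Abcg5 at 2.55 ± 0.23 and Abcg8 at 2.02 ± 0.24. Of 11 genes of SREBP processing and sterol-dependent degradation, Mbtps1 rose by 0.18 and Rnf139 fell by 0.37. Of 14 genes of the isoprenoid branches, 2 rose, among them Icmt by 0.38, and 0 fell. Lower cholesterol synthesis genes thus stood beside higher lipogenic and sterol efflux genes in the same libraries.

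With NAMPT in WT liver, 1 lipogenic gene fell (Me1, -1.09 ± 0.34) and 0 rose, with a median of -0.55 over the 13 genes. Soat1, which esterifies cholesterol, rose by 0.80 ± 0.19 and Abcg1, a sterol exporter, by 0.79 ± 0.18, and both are also expressed in macrophages. Among the processing genes 1 rose (Erlin1, by 0.30) and 2 fell, among them Ubxn4 by 0.33, and in the isoprenoid branches Pdss2 fell by 0.38. Of 14 clock genes 4 fell, with Arntl at 1.56 to 7.12 CPM in WD WT NAMPT and 4.88 to 18.1 CPM in WD WT EV. The clock score ran from -0.05 to 1.13 in WD WT NAMPT and from -0.81 to 0.84 in WD WT EV, ranges that overlapped. With the clock score as a covariate, 9 of the 27 cholesterol synthesis genes and SREBP2 targets were called lower with NAMPT, and Insig2, at -0.26 (adjusted p = 0.309), was no longer among them. That fit called 2620 of all genes in either direction.

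**Figure D4:**
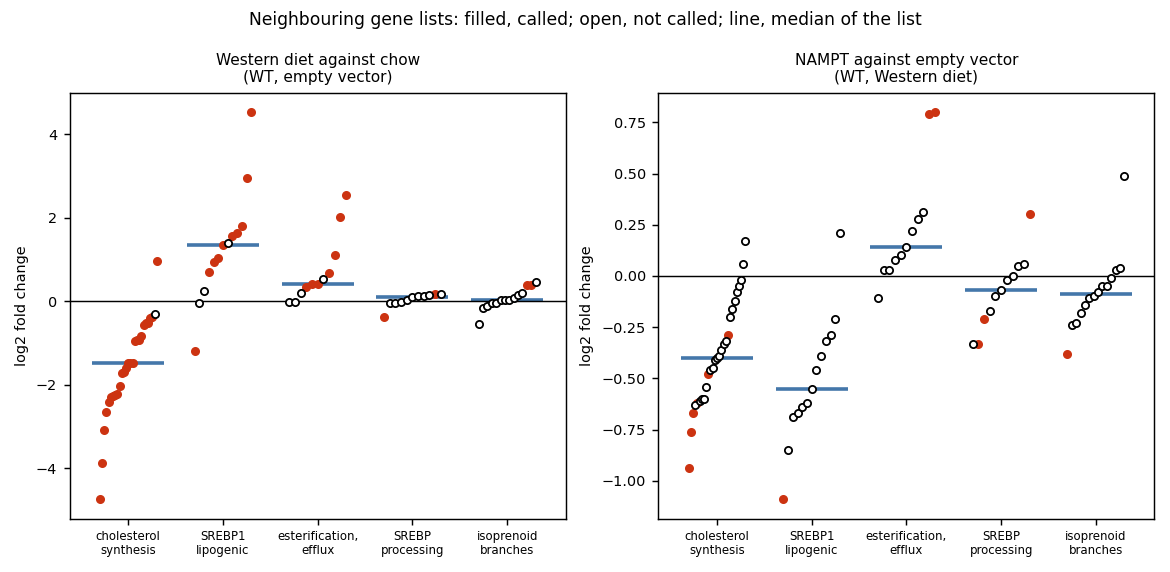
Fitted log2 fold changes of the genes of 5 lists (columns, one point per gene) for diet and for NAMPT in WT liver; filled points have an adjusted p at or under 0.05 and the blue line is the median of the list. With diet the cholesterol synthesis genes lie mostly below 0 (median -1.49) while the lipogenic genes (labelled SREBP1 lipogenic) lie mostly above it (median 1.35), and with NAMPT both lists have negative medians (-0.40 and -0.55).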

How the data were processed

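Per the study's methods and the submitters' processing notes, the authors aligned single-end reads to GRCm38 with STAR (2.5.1a in the notes) and counted them per Ensembl gene with featureCounts (1.4.6-p5 in the notes), and the paper names other versions of both. Only uniquely aligned, unambiguous reads entered the counts, and the strand setting is not given in the sources used here. What the authors deposited per library is an unnormalized read count for each gene, used for all tests, beside CPM and RPKM that they derived from it. Recomputed CPM and RPKM deviated from the deposited values by a relative 5.9e-14 at most, and those deposited columns were used for nothing else.

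Gene symbols came from GENCODE M21, which matched 40340 of 41388 identifiers. rRNA genes and genes without more than 1 CPM in at least 2 libraries were left out. TMM factors were computed with edgeR 4.0.16, and limma 3.58.1 (voom with sample quality weights, 1 mean per group, R 4.3.3) was fitted to all 25 libraries with Benjamini-Hochberg adjustment over 14065 genes. The filter, TMM and limma with quality weights follow the study's methods, which do not state a joint fit of these 25 libraries, and its figure legends name edgeR's exact test on fewer libraries per group. The interaction is the NAMPT effect in LKO minus that in WT. The procedure was tested on simulated counts with 200 genes changed 2-fold. The simulated libraries differed in size but not in quality, so that test does not bear on calls that rest on single libraries. Alternatives were edgeR's quasi-likelihood and exact tests, DESeq2 1.42.0, other filters and scalings, a replicate block, and leaving out each library. A clock score covariate and leaving out 2 libraries together were added after the data were seen.

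The genes and all lists were chosen with earlier results of these data known. Genes chosen for values per library are the 12 with the smallest adjusted p, and the 3 with the largest values in comparisons without a call. Some of their values are printed only as ranges with a median, or as a fitted value with its interval. No label ties a library to an animal, so p-values measure the spread between libraries, which may in part be technical. Libraries of a group differed beyond counting noise (chi-square per degree of freedom at least 15.6). No label gives a sequencing batch or the hour of collection.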

Additional observations from a re-analysis of the deposited data

Results flagged for a closer look

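In groups of 4 to 10 libraries, 9 of 108 combinations of gene and group had a library far from the others by Dixon's criterion, where chance alone gives about 5%. Of these, 5 were WD WT EV replicate 8 as the lowest library. It had 28.7 CPM for Acat2 (others 50.8 to 56.3), 9.98 for Pmvk (others 21.6 to 28.6), 25.7 for Fdft1 (others 42.2 to 49.5), 17 for Lss (others 26.2 to 31.2) and 11.8 for Rdh11 (others 27 to 34.9). These 5 genes vary together across libraries, so the 5 values are not independent of each other. WD WT EV replicate 8 was also the lowest of its group for the summed hepatocyte markers (54621 CPM) and lipogenic genes (29093 CPM). It was the highest for the summed genes of sterol esterification and efflux (2125 CPM). WD WT NAMPT replicate 2 was the lowest of its group for hepatocyte markers (45120 CPM), lipogenic genes (24708 CPM) and esterification and efflux (1468 CPM). In WD WT NAMPT, replicate 2 was lowest for Sc5d at 176 CPM (others 329 to 381), and replicate 6 was lowest for Srebf2 at 31.9 CPM (others 44.6 to 51.9). In WD LKO NAMPT, replicate 3 was highest for Idi1 at 11.1 CPM (others 5.75 to 6.74) and replicate 2 was highest for Stard4 at 115 CPM (others 66.4 to 78.1).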

How the results depend on the processing

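Of the 26 genes called with diet, the direction was the same in all 312 fits under 12 other settings, and 298 of these were called. Calls lost under a setting were those of Ggps1, Insig1, Lbr and Ebp. The number of the 27 genes called with diet was 24 to 27 under the other settings and 18 to 27 when 1 library was left out. With NAMPT in WT liver the number called was 6 (1890 of all genes), and it was 3 with edgeR's quasi-likelihood test (428), 1 without sample quality weights (192), 2 with scaling by library size alone (2281), 1 with no filter on low counts (524), 14 without chow WT EV replicate 3 and WD WT EV replicate 8 together (1670), and 0 to 12 when 1 library was left out (132 to 2844). Between LKO and WT mice with NAMPT it was 1 (1120 of all genes), and it was 0 with the quasi-likelihood test (45), without quality weights (38), with library size alone (840), with no filter (120), with only the groups compared (13) and with the replicate block (412), 5 without those 2 libraries (1083), and 0 to 3 when 1 library was left out (0 to 2290). In the interaction DESeq2 (19 of all genes) and the fit without those 2 libraries (68) each called 1 gene, Hmgcs1. The causes of these shifts were not tested. No direction of a called gene reversed. With scaling by library size alone the median of all genes was 0.16 with NAMPT in WT liver (0.0 with TMM) and -0.12 between genotypes with NAMPT (-0.01 with TMM), and the median of the 27 genes was then -0.24 and 0.16. With diet the quasi-likelihood test called 1322 of all genes, beside 3101.

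Same-numbered replicates correlated between -0.34 and 0.38 after group means, so the numbers were not taken as pairing. In NAMPT against the empty vector, 4 of 8 WT libraries (4 pairs) and 2 of 10 LKO libraries (5 pairs) correlated best with their own number. Between genotypes it was 3 of 6 libraries with the empty vector (3 pairs) and 2 of 10 with NAMPT (5 pairs). With so few pairs, these counts do not settle whether the numbers mark pairs. With the replicate block, 25 genes were called with diet (3842 of all genes), 6 with NAMPT in WT liver (Acat2, Hmgcs1, Insig2, Nsdhl, Pmvk and Rdh11; 884 of all genes) and 0 between genotypes with NAMPT.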
